A study of Mus musculus with 4 samples.

Results

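The 10 genes described here, Hspa5, Hsp90b1, Xbp1, Ern1, Eif2ak3, Atf6, Dnajb9, Herpud1, Sdf2l1 and Creld2, encode sensors, a transcription factor, chaperones and a degradation factor of the unfolded protein response of the endoplasmic reticulum (ER). They were chosen by name, and their probes were found through the transcript each probe is annotated to, which gave 17 probes for these 10 of the 23462 genes on the array. All 17 probes were well above background, as called by the scanner software, on all 4 arrays. The study asked how loss of Lpiat1 (also called Mboat7), an enzyme that attaches arachidonic acid to lysophosphatidylinositol, alters the liver in combination with diet. Liver RNA of male mice on a C57BL/6 background was hybridised to 4 one-colour arrays, 1 for each combination of genotype and diet. F/F mice carried floxed Lpiat1 alleles, and LKO mice (Alb-Cre; Lpiat1 F/F) carried the same floxed alleles plus Cre recombinase driven in hepatocytes by the promoter of albumin, so other liver cells of LKO mice keep the gene. Mice of each genotype ate chow (CE2) or high-fat diet (HFD, HFD-60) for 18 weeks from the age of 6 weeks and were 24 weeks old at sampling. Whether the RNA of an array came from 1 mouse or from a pool is not given in the labels. Because there was 1 array per condition, differences between conditions could not be tested and are given as values.

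The ER folds the proteins that a cell secretes, and a hepatocyte secretes most of the proteins of blood plasma. When unfolded proteins build up, they draw the chaperone BiP away from the sensors IRE1, PERK and ATF6 in the ER membrane. IRE1 then splices Xbp1 mRNA, PERK phosphorylates the translation factor eIF2alpha, and ATF6 moves to the Golgi apparatus and is cut to release a transcription factor. The spliced XBP1 and the cut ATF6 bind the ER stress response elements of target genes and raise chaperones and degradation factors.

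Promoter sequences are shown first because these elements are the link between the sensors and their targets. Of the 10 genes, 9 had an entry in the RefSeq promoter table (GRCm38.p6), which holds 250 bases before and 50 bases after each start. Both strands were searched for ERSE (CCAAT, 9 bases of any kind, CCACG), ERSE-II (ATTGG, 1 base of any kind, CCACG) and the UPR element (TGACGTGG). The motifs overlap in part, because ATTGG is the reverse complement of CCAAT, both ERSE forms end in CCACG, and CGTGG of the UPR element is the reverse complement of CCACG. ERSE was found in 39 of 32851 promoters (0.119%), ERSE-II in 12 (0.0365%) and the UPR element in 222 (0.676%). Of the 9 promoters, those of Hspa5, Hsp90b1 and Creld2 held ERSE, that of Herpud1 held ERSE-II and none held the UPR element. In Hspa5 the ERSE covered bases -65 to -47 from the start. Hsp90b1 had 1 at -212 to -194 and another on the opposite strand at -107 to -89. The Creld2 ERSE lay at -126 to -108 on the opposite strand, and the Herpud1 ERSE-II at -52 to -42. The promoters of Xbp1, Ern1, Eif2ak3, Dnajb9 and Sdf2l1 held none of these letters in this window. The 250 bases before each start follow for the 4 genes with an element, read along the gene from 5′ to 3′, with the element in capitals (as its reverse complement where it lies on the opposite strand). They lie at chr2:34771840-34772089 on the plus strand for Hspa5, chr10:86705445-86705694 on the minus strand for Hsp90b1, chr8:94386179-94386428 on the plus strand for Herpud1 and chr15:88819396-88819645 on the plus strand for Creld2.
Hspa5: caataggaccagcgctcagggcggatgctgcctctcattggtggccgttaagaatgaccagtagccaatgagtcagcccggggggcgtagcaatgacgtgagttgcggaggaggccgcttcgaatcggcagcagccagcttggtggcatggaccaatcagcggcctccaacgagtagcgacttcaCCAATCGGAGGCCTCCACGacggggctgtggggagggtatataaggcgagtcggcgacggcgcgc
Hsp90b1: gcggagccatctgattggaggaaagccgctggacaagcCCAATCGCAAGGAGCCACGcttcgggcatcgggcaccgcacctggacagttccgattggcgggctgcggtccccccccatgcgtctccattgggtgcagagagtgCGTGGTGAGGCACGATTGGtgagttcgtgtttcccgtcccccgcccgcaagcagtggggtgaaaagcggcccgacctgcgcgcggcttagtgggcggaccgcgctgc
Herpud1: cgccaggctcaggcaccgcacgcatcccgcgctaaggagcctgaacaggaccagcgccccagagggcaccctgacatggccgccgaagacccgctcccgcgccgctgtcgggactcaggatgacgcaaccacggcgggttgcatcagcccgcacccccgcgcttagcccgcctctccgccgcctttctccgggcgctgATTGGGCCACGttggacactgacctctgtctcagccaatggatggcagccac
Creld2: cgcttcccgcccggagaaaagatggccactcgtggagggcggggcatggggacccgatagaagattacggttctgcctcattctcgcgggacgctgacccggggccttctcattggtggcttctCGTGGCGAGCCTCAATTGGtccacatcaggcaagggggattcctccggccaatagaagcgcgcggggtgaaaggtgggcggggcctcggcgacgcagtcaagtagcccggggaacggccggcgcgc

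**Figure D1:**
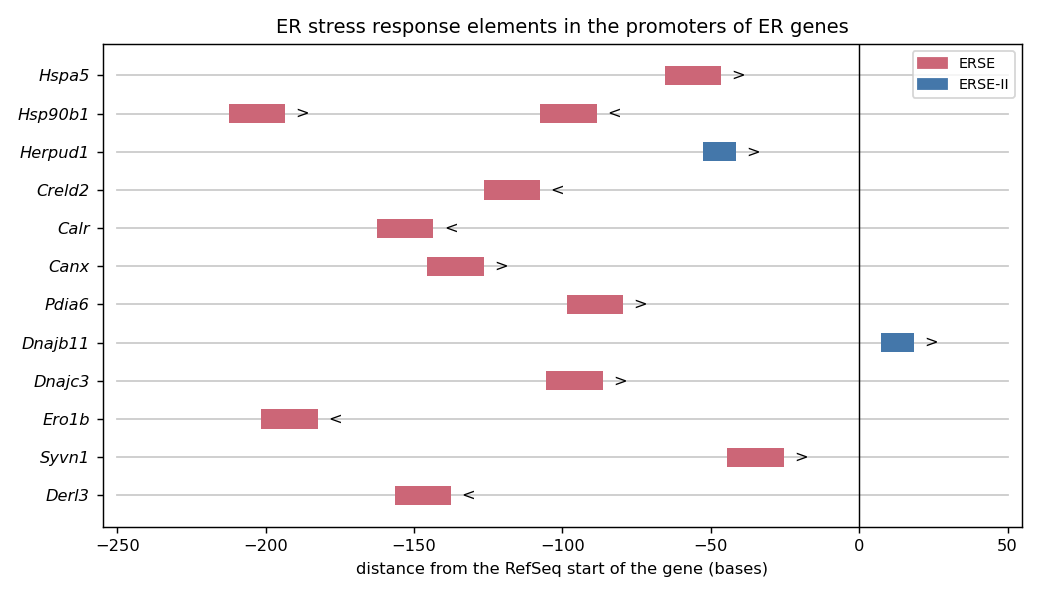
Positions of ERSE (red) and ERSE-II (blue) in the promoters of the 4 genes above and of 8 further ER genes, on an axis of bases from the RefSeq start (vertical line). An arrowhead gives the strand relative to the gene. All elements but that of Dnajb11 lie before the start, and Hsp90b1 has 2.

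The signal of a spot is given first as deposited, with F/F and LKO on chow followed by F/F and LKO on HFD. It is an intensity in arbitrary units and is not comparable between probes. The 75th percentile of the spots was 222, 213, 263 and 296 on these arrays, so differences are given as log2 of the signal after division by this percentile. Where a gene had several probes, the brightest stood for the gene. Replicate spots of 295 probes gave the technical spread, with an SD of 0.089 for the log2 difference of 2 spots, and 2 SDs (0.18) are used below to say whether neighbours in an order differ beyond it. This spread leaves out the differences between mice. Of the 295 probes, 282 lay above the 75th percentile on at least 1 array, and for these the SD was 0.075. The SD below the percentile is therefore larger than 0.089, and 0.18 is too narrow a limit for such dim probes. A gene is counted as changed past a fold of 1.5, which is 0.585 on the log2 scale. In whole liver, fewer cells of a type and less RNA per cell cannot be told apart.

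HFD against chow gave the largest differences of the 10 genes. In F/F, 4 genes (Hspa5, Xbp1, Dnajb9 and Creld2) were at least 1.5-fold lower on HFD and 0 were higher, where 9.60% of all genes were lower and 13.2% higher. In LKO, 6 genes were lower on HFD, namely the same 4 with Hsp90b1 and Herpud1, and 1 (Eif2ak3) was higher, against 11.7% and 15.4% of all genes. At a fold of 2, Creld2 alone was lower on HFD in each genotype, where 2.94% of all genes (F/F) and 4.07% (LKO) were. The median log2 difference of the 10 genes was -0.31 in F/F and -0.59 in LKO, beside -0.02 and -0.07 over all genes. The 2 comparisons use different arrays, but each shares its arrays with the comparisons of genotype below.

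**Figure D2:**
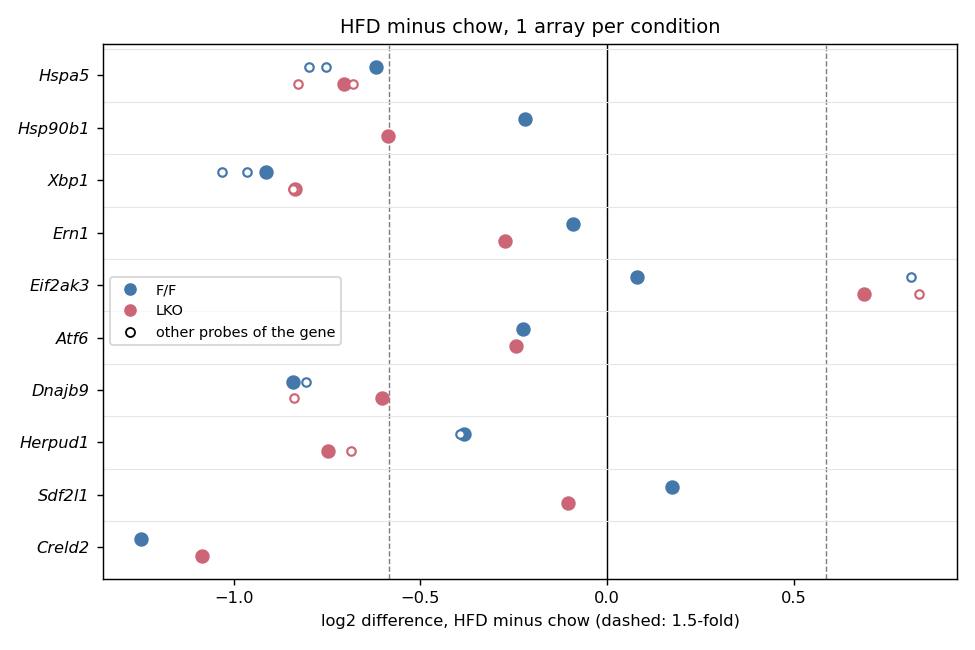
Log2 difference, HFD minus chow, of the 10 genes in F/F (blue) and LKO (red), with filled points for the brightest probe, open points for other probes and dashed lines at a fold of 1.5. Creld2 lies farthest to the left in both genotypes. Eif2ak3 lies beyond the line on the right with both probes in LKO, and with the open point alone in F/F.

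LKO against F/F gave smaller differences. On chow, 0 of the 10 genes were at least 1.5-fold higher or lower, where 3.52% of all genes were higher and 3.46% lower. On HFD, Eif2ak3 was higher and Herpud1 and Sdf2l1 were lower, beside 8.07% of all genes higher and 6.08% lower. The median difference was -0.08 on chow and -0.09 on HFD, with -0.03 over all genes on HFD. Of the 10 genes, 7 had their highest level in F/F chow, and 6 had their lowest in LKO HFD, 3 in F/F HFD and 1 in LKO chow. These ranks do not apply the limit of 0.18. Of the 7, only Herpud1 was higher in F/F chow than in the next array, LKO chow, beyond this limit. The lowest level lay beyond it for Hspa5, Hsp90b1, Ern1 and Herpud1 only. Ern1 lay below the percentile used for scaling on every array, and 0.18 is too narrow a limit for such a dim probe. Whether the lowest level of Ern1 exceeds the spot spread is therefore not known. Xbp1 was counted in LKO HFD at -0.00023 from F/F HFD, and its other probes were lowest in F/F HFD.

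**Figure D3:**
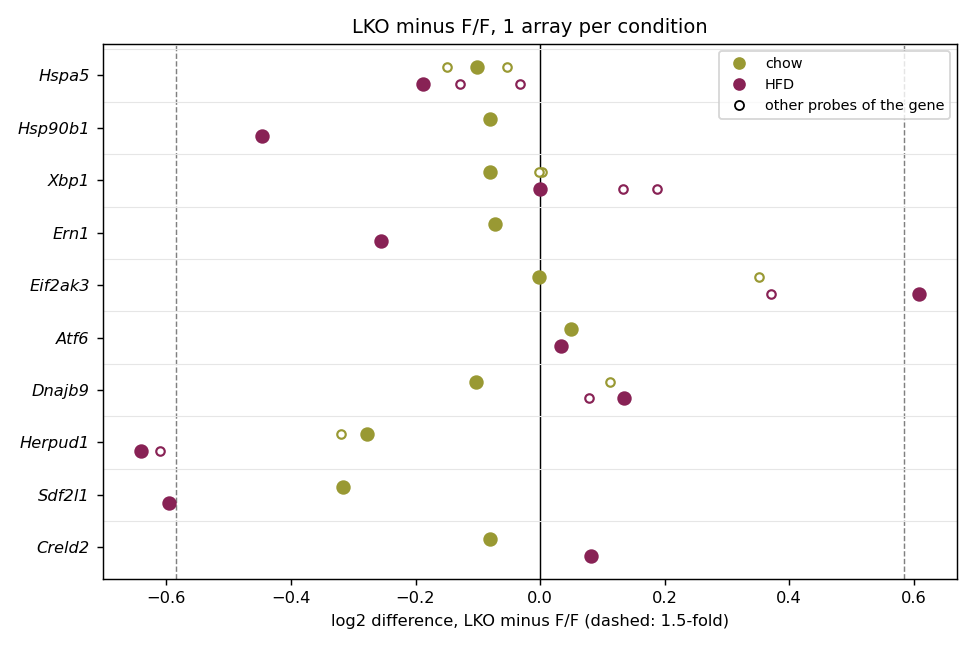
Log2 difference, LKO minus F/F, of the 10 genes on chow (olive) and HFD (purple), with filled points for the brightest probe, open points for other probes and dashed lines at a fold of 1.5. On chow all points lie between the lines, and on HFD Herpud1, Sdf2l1 and Eif2ak3 reach past them.

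Of the sensors, Eif2ak3 was the gene with a higher level on HFD. Eif2ak3 encodes PERK, the kinase that slows translation through eIF2alpha. Its brightest probe gave signals of 278, 268, 349 and 598. LKO HFD was the highest of the 4 arrays, and the other 3 did not differ beyond 0.18. The log2 difference of LKO from F/F was -0.00 on chow and 0.61 on HFD (1.52-fold), and that of HFD from chow was 0.08 in F/F and 0.69 in LKO (1.61-fold). A second, dimmer probe, annotated to another RefSeq transcript of Eif2ak3, read 40.7, 49.9, 84.8 and 123. By this probe both HFD arrays were above both chow arrays, with HFD against chow at 0.81 in F/F and 0.83 in LKO and LKO against F/F at 0.35 on chow and 0.37 on HFD. The probes of Eif2ak3 therefore disagreed in F/F, where they lay 0.73 apart, and both were higher on HFD in LKO.

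Ern1 encodes IRE1, the kinase and endoribonuclease that splices Xbp1 mRNA. Its single probe read 148, 135, 165 and 155. LKO HFD was lowest relative to the array, and the other 3 arrays did not differ beyond 0.18. The probe lay below the percentile used for scaling on every array, where this limit is too narrow. Whether LKO HFD differs from the other arrays beyond the spot spread is therefore not known. For Ern1, LKO against F/F was -0.07 on chow and -0.25 on HFD, and HFD against chow was -0.09 in F/F and -0.27 in LKO. The deposited table gave 0.04 in F/F instead of -0.09. Atf6, the sensor that is cut in the Golgi apparatus, read 816, 813, 828 and 952 on 1 probe. Relative to each array both chow samples were above both HFD samples, by a small margin, and within a diet the genotypes did not differ beyond 0.18. HFD against chow was -0.23 in F/F and -0.24 in LKO, and LKO against F/F was 0.05 on chow and 0.03 on HFD. With the deposited table, HFD against chow for Atf6 was -0.09 in F/F and -0.10 in LKO, within 0.18. No comparison of Ern1 or Atf6 reached a fold of 1.5.

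Xbp1, the transcription factor made active by IRE1, was lower on HFD in both genotypes. Its brightest probe read 23582, 21457, 14848 and 16677. The 2 chow arrays were alike, as were the 2 HFD arrays, and the diets did not overlap. HFD against chow was -0.91 in F/F (1.89-fold lower) and -0.83 in LKO (1.78-fold lower), whereas LKO against F/F was -0.08 on chow and -0.00 on HFD. The other 2 probes gave -0.96 and -1.03 for HFD against chow in F/F and -0.84 each in LKO. They gave 0.00 and -0.00 for LKO against F/F on chow and 0.13 and 0.19 on HFD. All 3 probes of Xbp1 are annotated to the same transcript, and none of the annotations sets the spliced form apart, so these values are of total Xbp1 mRNA.

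The chaperone genes differed in their order over the 4 arrays. Hspa5 encodes BiP (GRP78), the Hsp70 chaperone of the ER lumen that also binds the 3 sensors. Its brightest probe read 23259, 20849, 17981 and 17727. Both HFD arrays were below both chow arrays, and within chow the genotypes did not differ beyond 0.18. HFD against chow was -0.62 in F/F (1.54-fold lower) and -0.70 in LKO (1.63-fold lower), and LKO against F/F was -0.10 on chow and -0.19 on HFD. With normexp, quantile normalization, cyclic loess, the percentile over bright probes or the deposited table, the brightest probe was less than 1.5-fold lower in F/F, with the smallest difference at -0.43. The 2 dimmer probes of Hspa5 gave -0.75 and -0.80 for HFD against chow in F/F and -0.83 and -0.68 in LKO. In LKO, Hspa5 was at least 1.5-fold lower under 7 of 10 alternatives of processing, with the smallest difference at -0.55 with quantile normalization.

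Creld2 encodes an ER protein with disulphide isomerase activity that is known to rise under ER stress. Its probe read 8323, 7576, 4162 and 4949. The diets did not overlap, and within each diet the genotypes did not differ beyond 0.18. For Creld2, HFD against chow was -1.25 in F/F (2.37-fold lower) and -1.09 in LKO (2.12-fold lower), the largest difference of the 10 genes in each genotype. LKO against F/F was -0.08 on chow and 0.08 on HFD. Dnajb9 encodes ERdj4, a J-domain partner of BiP that brings it to IRE1. Its brightest probe read 2177, 1950, 1442 and 1780. Here too the HFD arrays were both below the chow arrays, at -0.84 in F/F (1.79-fold lower) and -0.60 in LKO (1.52-fold lower). The second probe of Dnajb9 gave -0.81 and -0.84. In LKO, Dnajb9 was at least 1.5-fold lower under 5 of 10 alternatives of processing, with the smallest difference at -0.46 in the deposited table. LKO against F/F for the brightest probe was -0.10 on chow and 0.14 on HFD, within 2 SDs of the spot spread.

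Hsp90b1 encodes GRP94, the Hsp90 chaperone of the ER. Its single probe read 23117, 21042, 23572 and 19433. Relative to the array, LKO HFD was lowest, and each neighbour among the other 3 arrays differed by less than 0.18. LKO against F/F was -0.08 on chow and -0.45 on HFD, and HFD against chow was -0.22 in F/F and -0.59 in LKO. The last value lies at the threshold of 0.585. Sdf2l1, an ER protein that works with the J-domain protein ERdj3, read 572, 441, 765 and 568. Both LKO arrays were below both F/F arrays. The difference of LKO from F/F was -0.32 on chow and -0.60 on HFD (1.51-fold lower, also near the threshold), whereas HFD against chow was 0.17 in F/F and -0.11 in LKO, the latter 0.04 when the deposited table kept its scale.

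Herpud1 encodes HERP, an ER membrane protein with a ubiquitin-like domain that acts with the ubiquitin ligase HRD1 in ER-associated degradation. Its brightest probe read 27073, 21485, 24612 and 17739. Relative to the array, F/F chow was highest and LKO HFD lowest, and LKO chow and F/F HFD did not differ beyond 0.18. LKO against F/F was -0.28 on chow and -0.64 on HFD (1.56-fold lower), and HFD against chow was -0.38 in F/F and -0.75 in LKO (1.68-fold lower). The second probe of Herpud1 gave -0.32, -0.61, -0.39 and -0.68 in the same order. Herpud1 and Sdf2l1 were thus lower in LKO than in F/F beyond 0.18 on each diet.

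**Figure D4:**
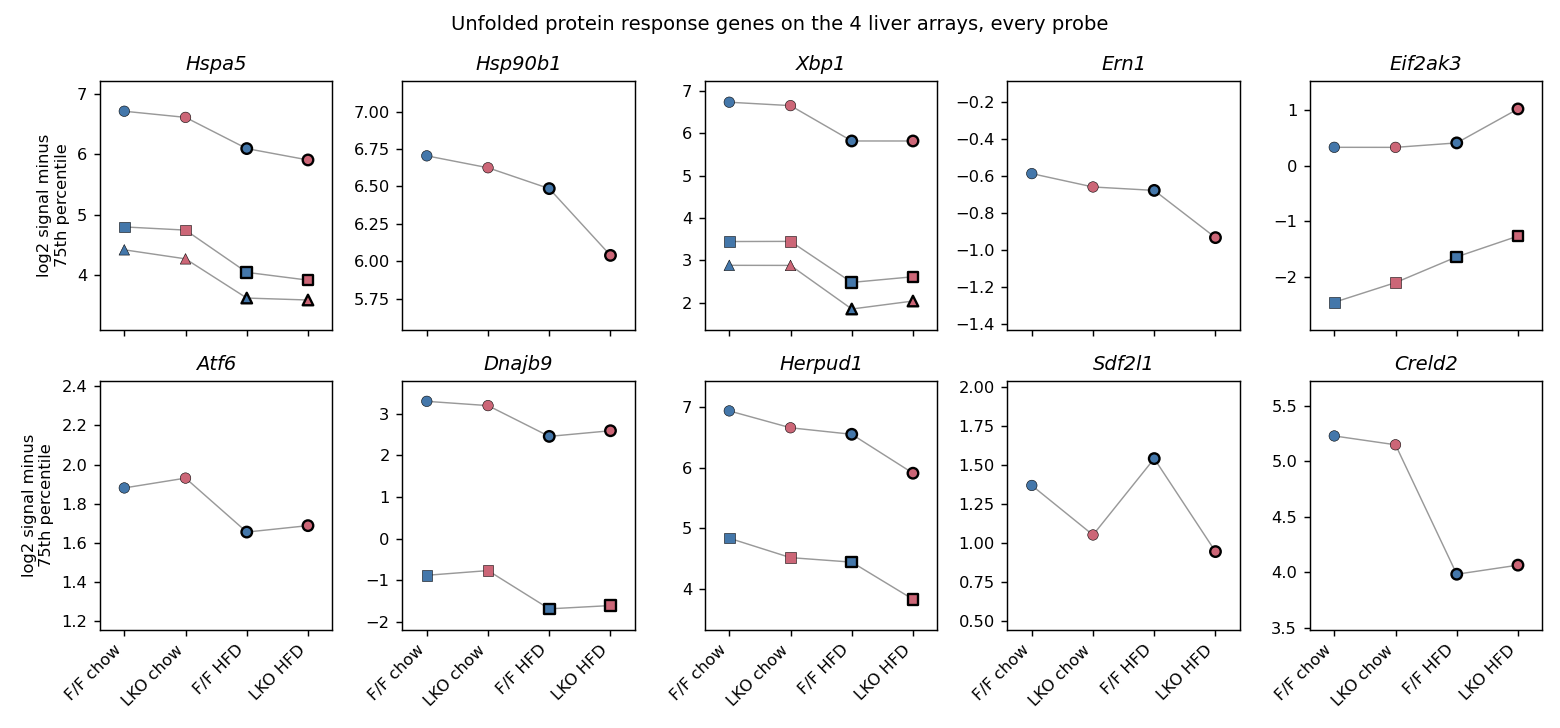
Levels of the 10 genes on the 4 arrays (log2 of the signal minus the 75th percentile of the array), with 1 panel per gene, circles for the brightest probe, squares and triangles for other probes, blue for F/F, red for LKO and a black outline for HFD. Each panel has its own vertical range, and lines join the spots of 1 probe without implying an order of the arrays. Creld2, Xbp1, Hspa5 and Dnajb9 step down from chow to HFD, and Herpud1 and Hsp90b1 are lowest in LKO HFD.

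The difference between the genotypes changed with diet for some of the genes. The LKO minus F/F difference on HFD exceeded that on chow by 0.61 for Eif2ak3 and by 0.24 for Dnajb9 on the brightest probe. The second probe gave 0.02 for Eif2ak3 and -0.03 for Dnajb9, so for both genes this change was seen on 1 of 2 probes. It was -0.37 from chow to HFD for Hsp90b1, -0.36 for Herpud1 and -0.28 for Sdf2l1. For the other 5 genes this change was between -0.18 (Ern1) and 0.16 (Creld2). These are values of 4 single arrays and were not tested.

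Further genes of the ER were examined in lists, each described by counts and its median. For reading the counts of lower genes, the share of all genes below 0 was 49.3% on chow and 54.1% on HFD for LKO against F/F, and 52.2% in F/F and 56.5% in LKO for HFD against chow. Of 20 other ER chaperones and folding enzymes, 18 were lower in LKO than in F/F on HFD, with a median of -0.28, and 0 of them by 1.5-fold. Under 6 other scalings of the arrays 15 to 18 of the 20 were lower. On chow the median was -0.04, with 13 lower. HFD against chow gave -0.14 in F/F (14 of 20 lower, and 11 with the deposited table) and -0.37 in LKO, where 20 of 20 were lower under every scaling. Calr (calreticulin) differed between LKO and F/F on HFD by -0.49, Pdia6 by -0.41, Pdia4 by -0.42, Dnajb11, which encodes ERdj3, by -0.41, Dnajc3 by -0.38 and Canx (calnexin) by -0.12. The most negative were Ero1b, an oxidase of disulphide bond formation, at -0.55 and Hyou1, an ER chaperone, at -0.51. Manf at 0.15 and Ero1a at 0.16 were the 2 that were higher. Manf, which encodes an ER stress-induced secreted protein, was lower on HFD by 1.61-fold in F/F (-0.69) and differed by -0.39 in LKO.

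For 18 genes of ER-associated degradation, the median of LKO against F/F was -0.04 on chow and -0.08 on HFD, and that of HFD against chow was -0.16 in F/F and -0.33 in LKO. In F/F the deposited table gave -0.03, with 11 of 18 lower. Syvn1, which encodes the ubiquitin ligase HRD1, read 8581, 7063, 6356 and 6211. It was lower on HFD by 1.60-fold in F/F and by 1.58-fold in LKO. Its adaptor Sel1l differed by -0.36 and -0.57 in the same comparisons and Edem1 by -0.15 and -0.38. Derl3 (a derlin) read 207, 111, 523 and 184, lower in LKO than in F/F on chow (1.80-fold) and on HFD (3.20-fold). It was highest on the F/F HFD array. Derl2 (-0.35), Edem2 (0.17) and Ube2j1 (0.14) were the other extremes of the list in LKO against F/F on HFD.

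All 19 genes of protein translocation into the ER and of export from it were lower in LKO than in F/F on HFD, between -0.35 (Srpr, a subunit of the signal recognition particle receptor) and -0.08 (Srprb), with a median of -0.18. Ssr3 was at -0.29 and Tram1 at -0.10. The 6 other scalings also gave 19 of 19 lower. On chow the median was 0.01, with 7 of 19 lower, and -0.02 with the deposited table. HFD against chow had a median of -0.16 in F/F and -0.33 in LKO. In F/F it was -0.04 with quantile normalization and -0.03, with 10 of 19 lower, in the deposited table. None of these 19 genes was past 1.5-fold between the genotypes.

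The PERK and ATF4 arm moved in both directions. Its 14 genes had medians of -0.06 on chow and -0.17 on HFD for LKO against F/F, and of -0.03 in F/F and -0.00 in LKO for HFD against chow, which became 0.10 and 0.14 with the deposited table. For HFD against chow, 4 of the 14 were at least 1.5-fold higher in F/F and 3 in LKO, and 1 was lower in each. Of all genes, 13.2% and 15.4% were higher and 9.60% and 11.7% lower. Atf4 itself, the factor translated when PERK or a related kinase is active, differed between HFD and chow by -0.43 in F/F and by -0.34 in LKO. Ddit3 (CHOP) read 124, 104, 143 and 200, and Trib3 read 501, 419, 1521 and 1479, which is 2.56-fold higher on HFD in F/F and 2.55-fold in LKO. Asns (asparagine synthetase) was higher in LKO by 2.06-fold on chow and by 3.62-fold on HFD. Nupr1 was higher in LKO by 1.80-fold on HFD, whereas Atf3 was lower by 2.62-fold. Both were higher on HFD than on chow, Atf3 by 11.4-fold in F/F and 3.52-fold in LKO, and Nupr1 by 2.04-fold and 3.39-fold. In LKO against F/F, Ppp1r15a (GADD34, which reverses the phosphorylation of eIF2alpha) was at -0.41 on chow and -0.50 on HFD. In the same comparison on HFD, Chac1 was at -0.53 and Fgf21 at -0.56. The median of 11 other ER stress transducers lay between -0.09 and -0.01 in the 4 comparisons, with signs that changed between scalings. Creb3l3, a liver factor cut by the same proteases as ATF6, was at -0.29 in LKO against F/F on HFD, beside Tmbim6 at -0.27, Creb3l2 at 0.56 and Mbtps2 at 0.12.

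Heat-shock proteins of the cytosol and mitochondria, which serve folding outside the ER, had a median of -0.20 in F/F and -0.47 in LKO for HFD against chow over 15 genes. At least 1.5-fold lower were 5 of them in each genotype, and 2 were higher in F/F and 1 in LKO. Of all genes, 9.60% in F/F and 11.7% in LKO were lower, and 13.2% and 15.4% higher. For LKO against F/F the median was 0.13 on chow and 0.01 on HFD, the latter -0.02 with the deposited table and -0.07 with cyclic loess. Hspa8 was lower on HFD by 1.56-fold in F/F and differed by -0.47 in LKO, while Hspb1 was higher by 1.77-fold and 2.04-fold.

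**Figure D5:**
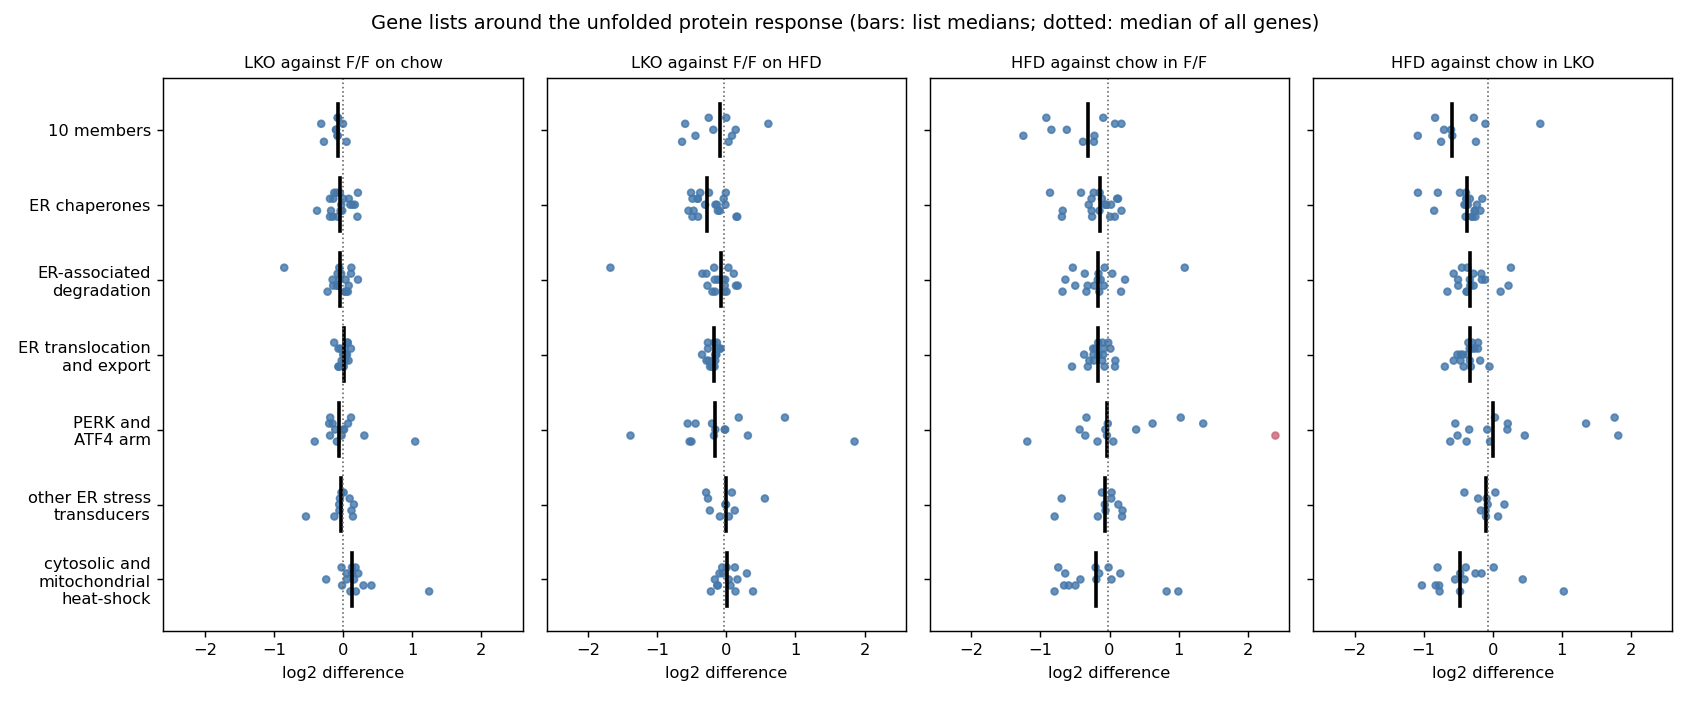
Log2 differences of the brightest probe of each gene in the ER and heat-shock lists, 1 panel per comparison, with black bars at the list medians, a dotted line at the median of all genes and a red point at the edge for 1 gene (Atf3) beyond the axis. On HFD the genes of ER translocation and export all lie to the left of 0.

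Genes with ERSE or ERSE-II are set apart as a description. Beside the 4 promoters printed above, 8 genes of the ER lists held an element, namely Calr, Canx, Pdia6, Dnajb11, Dnajc3, Ero1b, Syvn1 and Derl3, and 0 of 11 heat-shock promoters did. All 12 were lower in LKO than in F/F on chow, with a median of -0.15, and 11 of 12 were lower on HFD, with a median of -0.41. The exception was Creld2. Of all genes, 49.3% and 54.1% were below 0 in these comparisons. Under the 6 other scalings 12 of 12 and 11 of 12 were again lower. The 60 ER genes with a promoter but neither element had medians of -0.02 and -0.16, and 16 genes outside the ER lists that held an element had medians of 0.10 and 0.01. For HFD against chow, the 12 genes had medians of -0.18 in F/F and -0.53 in LKO, beside -0.09 and -0.29 for the 60. The split was chosen after values were seen, and the 12 were not matched to the 60 for brightness. The 4 genes printed above are all among the bright genes described next. The part of brightness in this contrast was not tested.

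Brightness and other cell types moved with some of these results. Genes with a mean level of at least 4 on the log2 scale, 1913 in number and 5 of the 10 among them (Hspa5, Hsp90b1, Xbp1, Herpud1 and Creld2), had medians of -0.10 in F/F and -0.26 in LKO for HFD against chow and of -0.15 for LKO against F/F on HFD. Of these bright genes, 8.73% were at least 1.5-fold lower on HFD in F/F and 17.9% in LKO. The 10 hepatocyte markers, all well above background on every array, were lower on HFD in both genotypes, with medians of -0.34 and -0.54 (-0.06 and -0.11 with quantile normalization, where 5 and 7 of 10 were lower), and their summed signal was 4803, 4877, 3783 and 3423 times the 75th percentile. Alb (albumin) was at -0.31 in F/F and -0.51 in LKO. Of the 10 markers, 3 (Fgb, Cps1 and Hnf4a) were at least 1.5-fold lower on HFD in each genotype. Of all genes, 9.60% in F/F and 11.7% in LKO were. Cps1 was at -1.11 in F/F and -1.03 in LKO, near the differences of Creld2. In LKO against F/F on HFD 8 of the 10 markers were lower, with a median of -0.13 (0.02 with quantile normalization), between -0.43 (Ttr) and 0.10 (Fgb). Quantile normalization gives spots of equal rank the same value on every array, so the method itself holds differences of the brightest genes, such as Alb, near 0. With cyclic loess the medians for HFD against chow were -0.14 in F/F and -0.36 in LKO, and -0.22 for LKO against F/F on HFD. The part of these shifts in the values of the 10 genes was not tested.

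Exocrine pancreas cells and plasma cells are rich in ER, so their markers were examined as well. Of 21 pancreas markers, 18 or 19 were well above background on each array. Their summed signal was 64.3, 41.3, 35.6 and 77.4 times the 75th percentile, and in LKO on HFD 18 of 19 exceeded F/F by 1.5-fold or more, 1 of them (Bhlha15) as a bound, with a median of 1.85. Cela1, which made up much of the sum on the chow arrays, was at 0.07. On chow all 19 with a value were lower in LKO than in F/F, 16 by 1.5-fold (3.46% of all genes), with a median of -0.92. In F/F all 19 were lower on HFD than on chow, 16 by 1.5-fold (9.60% of all genes), with a median of -0.80. In LKO 18 of 19 were at least 1.5-fold higher on HFD (15.4% of all genes), with a median of 1.97. Pla2g1b and Ptf1a, a defining transcription factor of these cells, were not well above background on any array, and Bhlha15 was not on the LKO chow and F/F HFD arrays. Of 9 plasma cell markers, 6 or 7 were well above background, with Tnfrsf17 and Irf4 below on every array, and their sum, most of it from Sdc1 (0.06 in LKO against F/F on HFD), lay between 10.5 and 11.9. Jchain was higher in LKO on HFD by 2.85-fold and Mzb1 by 2.37-fold, whereas Derl3, which stands in this list too, was lower.

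Macrophage markers were higher in LKO on HFD in 12 of 12 genes, with a median of 0.79 and a sum of 68.6, 69.6, 92.3 and 134. Cd14 was 2.20-fold and Cx3cr1 1.99-fold higher. Red blood cell genes had a sum of 354 on the F/F HFD array and of 177 to 180 on the others, with Hba-a1, Hba-a2 and Hbb-b1 at -0.98, -0.99 and -1.02 in LKO against F/F on HFD. Clock genes differed too on HFD, with Arntl 5.10-fold higher and Dbp (2.34-fold) and Ciart (2.80-fold) lower in LKO, and 16 of 18 had a value. For HFD against chow, Arntl was at -2.47 in F/F and 0.33 in LKO, Dbp at 1.01 and -0.29 and Ciart at 0.64 and -0.78. The part of each of these in the results for the 10 genes was not tested. Mboat7, the targeted gene, read 1102, 861, 1181 and 1100, which is 1.23-fold lower in LKO on chow and 1.21-fold lower on HFD. Whether its probe lies in the deleted exons was not determined, so it does not check the labels. The share of spots well above background was 53.0% to 57.0%, no spot was saturated, and all 4 arrays lay on 1 slide.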

How the data were processed

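Liver RNA was measured on 4 one-colour Agilent SurePrint G3 mouse arrays, 1 per condition. The authors deposited spot intensity values from Agilent Feature Extraction 12.0.3.1, after its background subtraction and spatial detrending, with flags for signals well above background, outliers and saturation. They also deposited a table in which each intensity is multiplied by 1 factor per array (2.60, 2.63, 2.41 and 2.10), of unstated origin. The labels name a GenElute kit for RNA and the study's methods another kit.

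From the deposited intensity, log2 minus the 75th percentile of each array over spots that are not controls was computed with Python 3.11.15, numpy 2.4.6 and pandas 2.3.3. Spots of 1 probe were averaged without outliers. Of 56605 probes, 33767 (59.7%) matched a gene through the RefSeq table. A gene not well above background on 1 array of a comparison was given a bound against the lowest signal well above background there (7.80, 8.09, 8.35 and 7.81), and on both no value. Signal over background stands in for depth, and the number of arrays limits the precision.

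The 10 genes, the lists and the fold of 1.5 were chosen with earlier results of these data known. Named beside the 10 are fixed genes and, by list, the extremes of LKO against F/F on HFD, with counts of 5 or fewer named freely. Fgb, Cela1, Mzb1 and Sdc1 were named after their values were seen. The brightness limit, cyclic loess normalization, the rescaling of lists and the split by promoter element were chosen after values were seen. No p-value is given. The values of 1 marker gene are not reported here. Alternatives were normexp correction (offset 50) and quantile or cyclic loess normalization (limma 3.58.1, R 4.3.3), other percentiles, filters, probe choices and folds, and the deposited table. The steps were tested on simulated data. Figures were drawn with matplotlib 3.10.9.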

Additional observations from a re-analysis of the deposited data

Results flagged for a closer look

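Of 62 genes, the 10 unfolded protein response genes and those named beside them, 6 differed between LKO and F/F in opposite directions on the 2 diets, each by more than 2 SDs of the spot spread, and 0 of the 10 did. With 1 array per condition, these opposite directions were not tested. The share of all genes that meet this rule was not computed. Some of the 62 genes were named for a large difference on HFD, so the count of 6 is not a rate. In the PERK and ATF4 arm, Ddit3 was at -0.19 on chow and 0.31 on HFD (log2), and Atf3 at 0.31 on chow and -1.39 on HFD. Among pancreas markers, Amy2a5 was at -0.58 and 2.04, Cpa1 at -1.44 and 1.97 and Reg1 at -0.63 and 2.13. The clock gene Arntl was at -0.45 on chow and 2.35 on HFD. Ddit3, Reg1 and Arntl lay below the 75th percentile on every array, Atf3 on both chow arrays and Cpa1 on all but LKO HFD. The limit is too narrow for such dim probes, and Ddit3 on chow lay close to it.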

How the results depend on the processing

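The median of the 10 genes for HFD against chow stayed below 0 under every alternative run. In F/F it was -0.31, and -0.20 with quantile normalization and -0.17 with the authors' table. In LKO it was -0.59, and -0.47 with normexp, -0.46 with quantile normalization and -0.45 with the authors' table. For LKO against F/F on HFD it was -0.09, and 0.00033 with the dimmest probe of each gene. The 6 genes lower on HFD in LKO became 3 with normexp, quantile normalization or the authors' table, 1 at a fold of 2 and 12 of 17 with every probe counted. The 4 lower in F/F became 1 at a fold of 2, 9 with every probe, and 3, without Hspa5, with normexp, quantile or cyclic loess normalization, the percentile over bright probes or the authors' table. The 2 lower in LKO on HFD became 0 with normexp or a fold of 2, and 1 with quantile normalization or the percentile over bright probes. Eif2ak3, the 1 gene higher in LKO on HFD, fell to a count of 0 with normexp, a fold of 2, the authors' table, the mean of its probes or the dimmest probe. For HFD against chow, the count higher in F/F rose from 0 to 1 with the dimmest probe or every probe, and in LKO went from 1 to 0 at a fold of 2 and to 2 with every probe. Of 400 values of single genes under 10 alternatives, 332 moved by less than the spot spread, 68 by more and 0 reversed a called value. Xbp1 and Creld2 stayed at least 1.5-fold lower on HFD in both genotypes under all 10. Some of these values could not move. The filters left every value as it was, because all 17 probes were well above background on all 4 arrays. The probe choices could not change the 5 genes with 1 probe, Creld2 among them. The authors' table moved the median of all genes for HFD against chow in F/F from -0.02 to 0.11, and the genes higher and lower from 2033 and 1474 to 2765 and 972, and in LKO from 2347 and 1789 to 2992 and 1189. The causes were not tested. No paired analysis was possible because each condition has 1 array and no test was made.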
